A study of Mus musculus with 2 samples.

Results

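The extracellular matrix scaffold of the mouse uterus was examined in epithelial RNA from Stat3 knockout and control mice on day 4 of pregnancy. The members were the genes whose single platform symbol names a collagen alpha chain, a laminin chain, a nidogen, a lysyl oxidase or a fibrillin, together with the named scaffold genes Fn1, Hspg2, Agrn, Tnc and Postn. The rule found 58 genes, read by 92 probe sets, among 12393 genes on the array. Each gene was represented by its brightest probe set. Of the 58 genes, 30 passed a signal floor of 14.0 in 1 or both groups and have a ratio, and 28 lay under the floor on both arrays.

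The study compared Stat3 knockout mice with Stat3 flox control mice, both pregnant at day 4, with no other treatment. The epithelium was loosened from uterine pieces with trypsin, and 1 Affymetrix mouse expression array was hybridised per group with total RNA that the design text describes as pooled, with n = 3 for each sample. The promoter or Cre line behind the deletion is not named in the labels, which leaves the deleted cell types unstated. Both samples share a title that names flox control mice, and the groups rest on the genotype label. The extraction text names human stromal cells, against mouse epithelium in every other label.

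Epithelia rest on a basement membrane, a thin sheet of laminin and type IV collagen networks tied together by nidogens and heparan sulfate proteoglycans. A laminin molecule is a trimer of an alpha, a beta and a gamma chain. The interstitial matrix of the underlying stroma is built mainly from fibrillar collagens, microfibrils of collagen VI and fibronectin, and is made largely by fibroblasts. Uterine luminal epithelium stands on such a basement membrane until the time of implantation.

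Values are MAS5 signals, the background-corrected brightness of a probe set on a linear scale, which the authors had scaled to a trimmed mean of 150.1 on both arrays. With 1 array per group there is no spread between samples, so no difference has a replicate check and no p-value was computed. Differences are described by size, as the log2 ratio of knockout over control, and 2-fold was used as the limit. The only measured error is the disagreement between probe sets of a gene, with an SD of 0.28 log2 units per probe set over 2853 genes. It covers neither animals nor arrays. The array labelled knockout had the lower Stat3 signal, at 186 against 582 in the control for the brighter probe set and 160.0 against 430.0 for the next.

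Most of the matrix scaffold lay within 2-fold. The laminin beta chain genes Lamb1 and Lamb3 and the fibronectin gene Fn1 were past that limit on the low side in the knockout, and the laminin alpha chain gene Lama4 on the high side. These are 3 lower and 1 higher among 30 genes with a ratio, while over all 8304 genes with a ratio 9.92% were past it on the low side and 7.37% on the high side. The lower count was near that background and the higher count under it. The median log2 ratio was 0.08 over the 30 members and 0.05 over all genes. Of 17 collagen genes with a ratio, none was past 2-fold in either direction. At 1.5-fold, 4 of the 30 members were higher and 4 lower, beside 19.4% and 18.6% of all genes.

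**Figure D1:**
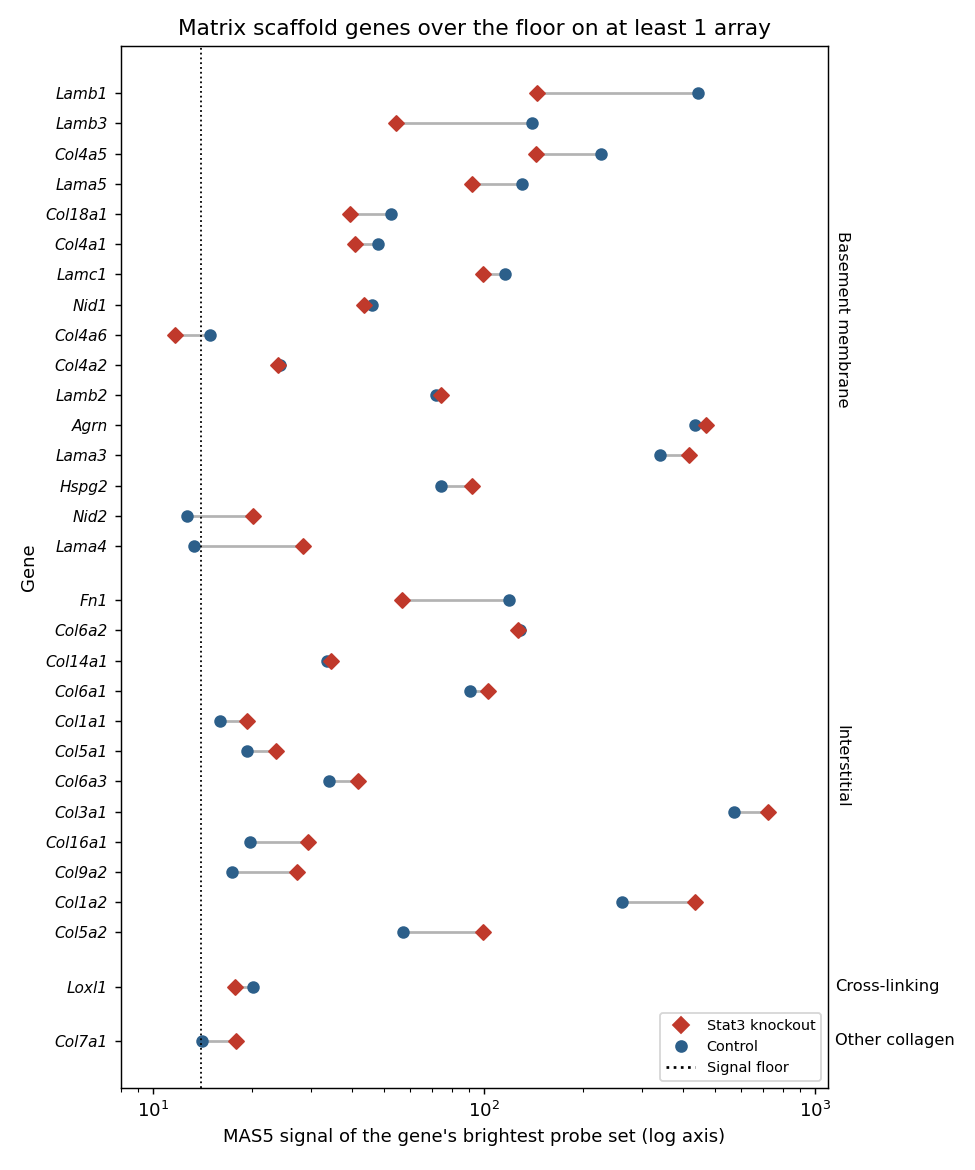
MAS5 signal (log axis) of the 30 matrix scaffold genes that passed the floor, with diamonds for the Stat3 knockout array, circles for the control array and a dotted line at the floor of 14.0. The widest gaps with the knockout lower are those of Lamb1, Lamb3 and Fn1, and the widest with the knockout higher is that of Lama4; there is 1 array per group, so no error bar can be drawn.

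The laminin chains differed among themselves. The beta chain gene Lamb1 (gene ID 16777), which encodes the beta chain shared by many laminins of developing and adult epithelia, had a signal of 145 in the knockout and 442 in the control. Its log2 ratio was -1.61, or 3.05-fold lower, and 4.60% of all genes had a lower ratio. It was the lowest ratio of the 30 members. The other Lamb1 probe sets ran the same way. The next brightest had a signal of 48.2 in the knockout and 120 in the control, a log2 ratio of -1.32. The brightest is of a design that can read several transcripts, and -1.32 was the Lamb1 ratio when such probe sets were left out. The dimmest was at 12.4 in the knockout, under the floor, and 28.9 in the control, which makes it at least 2.06-fold lower.

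Lamb3 (gene ID 16780), the beta chain of the laminin that epithelial cells place under hemidesmosomes, had a signal of 54.4 in the knockout and 139 in the control. It was 2.57-fold lower, with a log2 ratio of -1.36, and 6.33% of genes had a lower ratio. A single probe set reads Lamb3, of a design that can read several transcripts, so it had no value when such probe sets were left out. The remaining beta chain gene, Lamb2, had nearly equal signals, 74.4 in the knockout and 71.9 in the control, a log2 ratio of 0.05. The beta chains thus ranged from 3.05-fold lower to level.

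The alpha and gamma chains of the same laminins were closer to level. Lama3, the alpha chain that pairs with Lamb3, had a signal of 418 in the knockout and 341 in the control, a log2 ratio of 0.29. Lama3 and Lamb3 therefore stood on opposite sides of 0, although the Lama3 ratio was about the size of the disagreement between probe sets. A single probe set that can read several transcripts reads Lama3 too, and it had no value when such probe sets were left out. Lama5, the main alpha chain of adult epithelial basement membranes, had a signal of 92.2 in the knockout and 131 in the control, a log2 ratio of -0.51. Its other probe set had a ratio of -0.29. Lamc1, the gamma chain of most laminins, had a signal of 99.6 in the knockout and 116 in the control, a log2 ratio of -0.22. A dim second Lamc1 probe set had 16.3 in the knockout and 13.9 in the control, just under the floor there. The gamma chain gene was within the disagreement between probe sets.

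Lama4, an alpha chain known mainly from vessel, muscle and other mesenchymal basement membranes, had a signal of 28.4 in the knockout and 13.3 in the control. The control value was under the floor, so the gene was at least 2.02-fold higher, a bound that only just passes the limit. After loess scaling the bound was a log2 ratio of 0.95 or higher, which does not settle whether it passes 2-fold. With the floor added to both signals the ratio was 0.63, within 2-fold, and with the floor at the 60th percentile or the mean of all probe sets it had no ratio. A second Lama4 probe set was under the floor on both arrays. Lama1, Lama2 and Lamc3 were also under the floor on both arrays.

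Because the beta chain genes stood furthest apart, the bases before their transcription starts are shown beside those of the fibrillar collagen gene Col1a2. Lamb1 and Lamb3 had ratios under 0, and Lamb2 (0.05) and the brighter Col1a2 probe set (0.73) had ratios over it. The dimmer Col1a2 probe set was at -0.08. The sequences are from RefSeq (GRCm38.p6), 250 bases upstream of the annotated start, with capitals marking a match to TTCNNNGAA (the core that STAT factors recognise), GGGCGG (a GC box), CCAAT or TATAAA on either strand. Lamb1 lies at chr12:31265043-31265292, Lamb3 at chr1:193301744-193301993, Lamb2 at chr9:108479612-108479861 and Col1a2 at chr6:4505368-4505617, all on the plus strand.
Lamb1: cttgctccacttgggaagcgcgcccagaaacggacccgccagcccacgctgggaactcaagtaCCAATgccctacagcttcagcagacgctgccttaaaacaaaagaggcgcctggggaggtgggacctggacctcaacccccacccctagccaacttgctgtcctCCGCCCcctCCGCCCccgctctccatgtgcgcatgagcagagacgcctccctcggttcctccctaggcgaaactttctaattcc
Lamb3: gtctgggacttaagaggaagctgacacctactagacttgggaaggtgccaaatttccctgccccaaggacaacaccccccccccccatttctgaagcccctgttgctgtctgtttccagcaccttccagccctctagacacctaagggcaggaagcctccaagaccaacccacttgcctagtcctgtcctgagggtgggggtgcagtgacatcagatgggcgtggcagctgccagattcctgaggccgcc
Lamb2: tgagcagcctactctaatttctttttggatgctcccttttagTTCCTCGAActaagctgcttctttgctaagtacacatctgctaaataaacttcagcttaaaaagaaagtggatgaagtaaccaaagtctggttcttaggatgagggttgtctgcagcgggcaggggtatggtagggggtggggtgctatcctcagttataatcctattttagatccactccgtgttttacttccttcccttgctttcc
Col1a2: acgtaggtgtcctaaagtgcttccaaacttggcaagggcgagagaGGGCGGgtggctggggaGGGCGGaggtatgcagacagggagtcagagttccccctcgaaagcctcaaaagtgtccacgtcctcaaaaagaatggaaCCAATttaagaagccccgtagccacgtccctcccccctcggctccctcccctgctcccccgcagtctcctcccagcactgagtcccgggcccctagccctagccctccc

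Lamb1 and Col1a2 each held 2 GC boxes and 1 CCAAT box, written as CCGCCC or GGGCGG depending on the strand, while Lamb3 held no match to any of the 4 motifs. Lamb2 held the single STAT core. RefSeq lists another start for Lamb3, and the gene records of Lamb1, Lamb2 and Lamb3 begin before the end of the windows shown, so other starts exist. Of the 58 member genes, 38 had an entry in the promoter table, with 45 windows. The STAT core was in 1 of these windows, or 2.22%, against 7.02% of all 32851 windows of the same length. GC boxes were in 55.6% of the members' windows and 32.7% of all windows, CCAAT boxes in 31.1% and 33.8%, and TATAAA in 17.8% and 12.4%. A match is a description of the letters and not a binding site.

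The type IV collagens, the network formers of the basement membrane, lay within 2-fold, with 4 of 6 genes past the floor and all 4 ratios under 0, as were 46.6% of all genes. Of these, Col4a2 turned to 0.05 when each array was centred on its median. Col4a5 had a signal of 144 in the knockout and 227 in the control. It was 1.58-fold lower, with a log2 ratio of -0.66, and its other probe set had -0.62. Its probe sets differed by less than those of any other member with more than 1 probe set over the floor on both arrays. Col4a1 and Col4a2, the chains of the most common type IV collagen, were near level. Col4a1 had 40.7 in the knockout and 47.9 in the control, a log2 ratio of -0.23. Col4a2 had 24.0 in the knockout and 24.3 in the control, a log2 ratio of -0.02. Col4a6 straddled the floor, with 11.7 in the knockout and 14.9 in the control, and its other probe set had 15.0 and 4.37, so its direction is not settled. Col4a3 and Col4a4, the chains of the type IV collagen of kidney glomeruli and some other thin membranes, were under the floor on both arrays.

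Among the linkers and proteoglycans, the heparan sulfate proteoglycan gene Agrn, which encodes agrin, had a signal of 470.3 in the knockout and 435 in the control, a log2 ratio of 0.11. Hspg2, which encodes perlecan, had 92.3 in the knockout and 74.2 in the control, a log2 ratio of 0.31. The Hspg2 probe sets did not run the same way: the dimmer one had 5.57 in the knockout, under the floor, and 20.9 in the control, which is at least 1.49-fold lower. Nid1, which encodes the laminin and collagen IV linker nidogen 1, was near level in its brightest probe set, at 43.4 in the knockout and 46.0 in the control. A second Nid1 probe set was under the floor on both arrays, and with the mean of all probe sets the log2 ratio was -0.56. Nid2 had 20.1 in the knockout and 12.7 in the control, at least 1.43-fold higher. Col18a1, the source of endostatin, had 39.5 in the knockout and 52.6 in the control, a log2 ratio of -0.41, and its other probe set had 0.08. Col15a1, its close relative, was under the floor on both arrays.

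The interstitial genes lay mostly above 0. Of 25 interstitial genes on the array, 12 were over the floor on both arrays and none on only 1, and 10 of the 12 ratios were over 0, beside 53.4% of all genes. Fibrillar collagens I, III and V had 5 of 5 ratios over 0, all within 2-fold. Col3a1, the main chain of the fine reticular fibres of the uterus, had a signal of 721 in the knockout and 570.0 in the control, a log2 ratio of 0.34. Its dimmer probe set had a ratio of -0.14. Col1a2, a chain of type I collagen, had 434 in the knockout and 261 in the control, a log2 ratio of 0.73. Its dimmer probe set had 47.8 in the knockout and 50.6 in the control, a ratio of -0.08. The Col1a2 difference was therefore seen in the brighter probe set and not in the dimmer one.

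Col5a2, a chain of the type V collagen that regulates fibril width, had 99.8 in the knockout and 56.9 in the control. It had the highest ratio of the interstitial genes, 0.81, or 1.75-fold higher. Its other probe set had a control signal under the floor and was at least 1.72-fold higher. The partner chain gene Col5a1 had 23.6 in the knockout and 19.3 in the control. Col1a1 had 19.3 in the knockout and 15.9 in the control, close to the floor on both arrays. The ratios of Col5a1 and Col1a1 were 0.29 and 0.27.

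The beaded-filament collagen VI genes were near level. Col6a1 had 103 in the knockout and 90.9 in the control, Col6a2 had 127 and 129, and Col6a3 had 41.6 and 34.0, with ratios of 0.18, -0.01 and 0.29. Among the collagens that associate with fibrils, Col14a1 had 34.5 in the knockout and 33.6 in the control. Col16a1 had 29.5 in the knockout and 19.7 in the control, and Col9a2 had 27.3 and 17.3, with ratios of 0.58 and 0.66. Both genes were dim on both arrays.

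Fn1 (gene ID 14268), which encodes the adhesive glycoprotein fibronectin, stood apart from the other interstitial genes. Its signal was 56.7 in the knockout and 120 in the control, 2.11-fold lower, with a log2 ratio of -1.08. The next lowest interstitial ratio was -0.01, that of Col6a2. A second Fn1 probe set was under the floor on both arrays, so the difference rests on 1 probe set. With the floor at the 60th percentile its knockout signal was under the floor, and the log2 ratio became a bound of -0.90 or lower, which does not settle whether it passes 2-fold. With the floor added to both signals it was -0.92, within 2-fold.

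**Figure D2:**
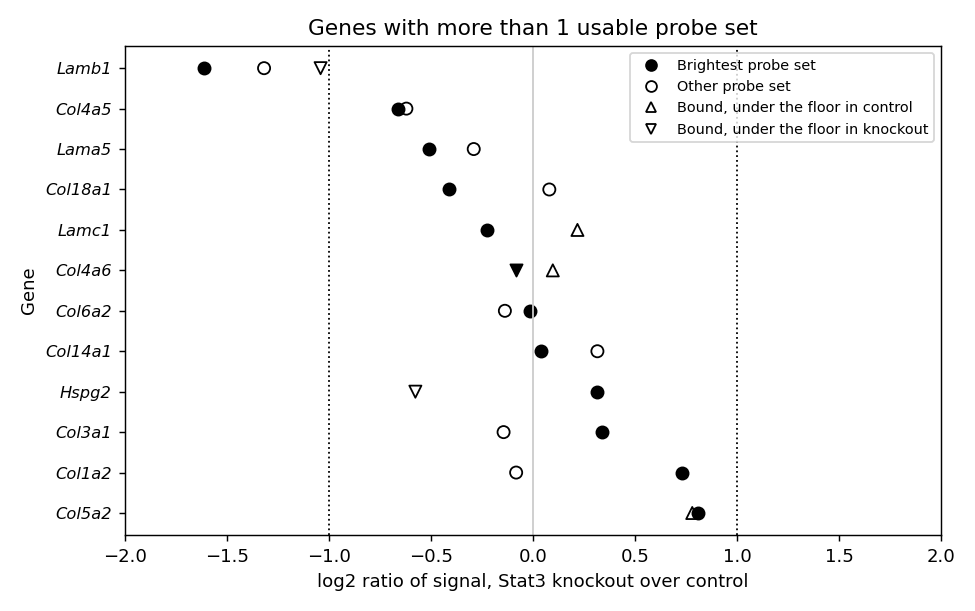
Log2 ratio of knockout over control for each probe set of the 12 member genes with more than 1 probe set that passed the floor; filled marks are the brightest probe set, open marks the others, triangles are bounds, and dotted lines mark 2-fold. The 3 Lamb1 probe sets all lie past the lower line, and those of Col4a5, Lama5, Col6a2, Col14a1 and Col5a2 share a side of 0, while those of Hspg2, Col3a1, Col1a2, Col18a1, Lamc1 and Col4a6 fall on both sides.

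In the comparison of the classes, the basement membrane genes had 16 of 22 members with a ratio, of which 2 were past 2-fold on the low side, 1 on the high side and 10 under 0, beside 9.92%, 7.37% and 46.6% of all genes. Their median log2 ratio was -0.08. The interstitial genes had 1 of 12 past 2-fold on the low side, 0 on the high side and a median of 0.29. The medians differed by -0.37, basement membrane minus interstitial, a description of these 2 arrays with no replicate check, beside a median of 0.05 over all genes. In a bulk sample, fewer cells of a type and less RNA per cell cannot be told apart.

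**Figure D3:**
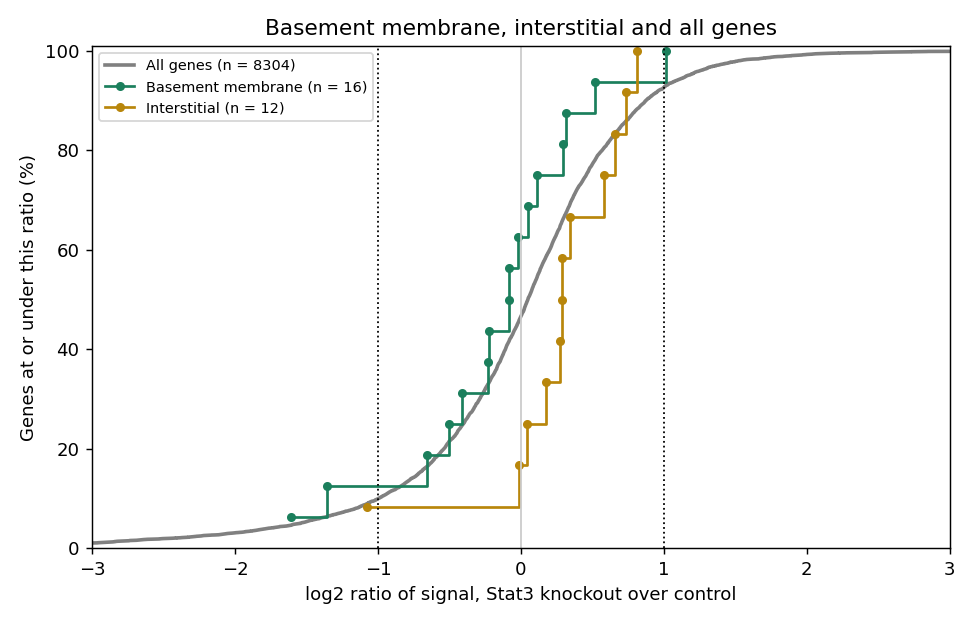
Cumulative share of genes (%) at or under each log2 ratio of knockout over control, for 16 basement membrane genes, 12 interstitial genes and all 8304 genes with a ratio; dotted lines mark 2-fold and bounds are entered at their bound. The interstitial curve lies right of the basement membrane curve at all ratios under 0.81. The basement membrane median is -0.08 and the interstitial median 0.29, and Lama4, at a bound of 1.02, is the highest of either class.

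**Figure D4:**
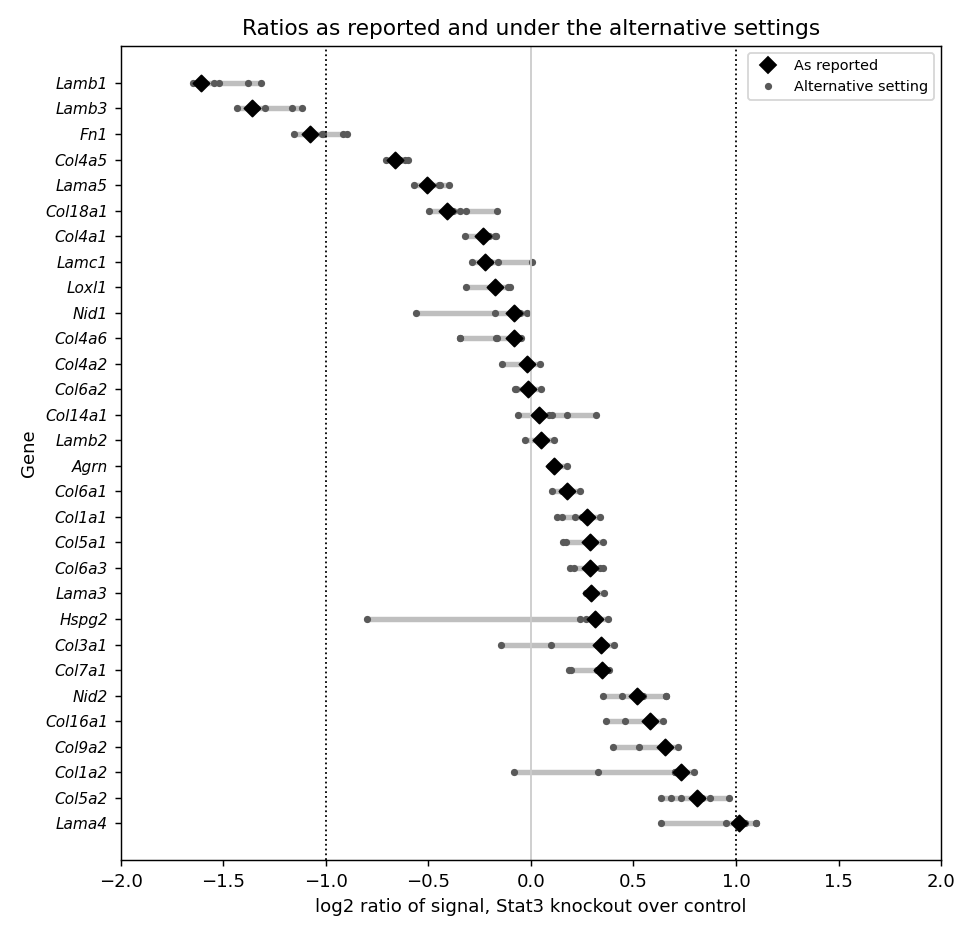
Log2 ratio of knockout over control for the 30 members as reported (diamonds) and under each alternative scaling, floor or probe set rule (small points, joined by a grey bar); dotted lines mark 2-fold. Lamb1, between -1.65 and -1.32, and Lamb3, between -1.43 and -1.12, stay past the lower line where they have a value, while Fn1 and Lama4 cross a line, partly as bounds, and Hspg2, Col1a2, Col3a1, Col14a1, Col4a2, Col6a2, Lamb2 and Lamc1 cross 0.

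The lysyl oxidases, which cross-link collagen and elastin, were dim. Loxl1 had 17.8 in the knockout and 20.1 in the control, a log2 ratio of -0.18, and Lox, Loxl3 and Loxl4 were under the floor on both arrays. Of the collagens outside both classes, only Col7a1, which forms the anchoring fibrils under stratified epithelium, was over the floor, with 17.9 in the knockout and 14.1 in the control. Col8a1, Col10a1, Col13a1, Col17a1, Col25a1 and Col26a1 were under it on both arrays. So were the interstitial genes Col2a1, Col5a3, Col9a1, Col9a3, Col11a1, Col11a2, Col12a1, Col19a1, Col20a1, Col22a1, Fbn2, Postn and Tnc. Their signals are not ordered here. A signal under the floor sets no more than an upper limit on this array.

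Genes that make, bind or accompany the scaffold were read from 3 further lists. Of 13 collagen-making enzyme genes with a ratio, 4 were past 2-fold on the low side and 1 on the high side, beside 9.92% and 7.37% of all genes. Their median log2 ratio was -0.45, against 0.05 over all genes. P4ha2, a catalytic subunit of collagen prolyl hydroxylase, had 46.5 in the knockout and 289.6 in the control, 6.23-fold lower. P4ha1, the alternative catalytic subunit, had 65.6 in the knockout and 29.5 in the control, 2.23-fold higher. The subunit genes thus lay past the limit in opposite directions, although P4ha1 was within it with the floor added to both signals (0.87), and had only a bound short of it with the mean of all probe sets (0.90 or higher) and with the floor at the 60th percentile (0.03 or higher). Pcolce2, an enhancer of procollagen cleavage, had 86.0 in the knockout and 308 in the control, 3.58-fold lower. Bmp1, which encodes the procollagen C-proteinase, was under the floor in the knockout at 11.6 against 49.3 in the control, at least 3.51-fold lower. Colgalt1, a collagen galactosyltransferase gene named here after its values were seen to complete the count, had 145 in the knockout and 292 in the control, at 2.00-fold the smallest of the differences counted. It was within 2-fold after median centring (-0.94), with the floor added to both signals (-0.94) and with the mean of all probe sets (-0.70). The brightest genes of the list were near level: Ppib had 1772 in the knockout and 1993 in the control, and P4hb 1082 and 1185.

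Of 16 matrix receptor genes with a ratio, 3 were lower and 1 higher by 2-fold or more, beside 9.92% and 7.37% of all genes. The median log2 ratio of the list was -0.28. Sdc1, the epithelial heparan sulfate proteoglycan syndecan 1, had 32.4 in the knockout and 273 in the control, 8.41-fold lower. Cd44, a hyaluronan receptor, had 12.7 in the knockout, under the floor, and 39.9 in the control, at least 2.84-fold lower. Itga9, an integrin subunit that binds tenascin and other ligands, was 2.79-fold lower. With the mean of all probe sets Itga9 was at -0.77, within 2-fold, and Cd44 had only a bound of -0.17 or lower. With the floor at the 60th percentile Itga9 had only a bound of -0.38 or lower. Itgb5, a subunit of a vitronectin receptor, had 621 in the knockout and 241 in the control, 2.58-fold higher. The collagen receptor kinase gene Ddr1 and the syndecan gene Sdc4 were within 2-fold, with 1642 in the knockout and 1383 in the control, and 1736 and 1246. The laminin receptor subunits Itga6 and Itgb1, named after their values were seen, were just inside the limit. Itga6 had 641 in the knockout and 1243 in the control, and Itgb1 had 163 and 315, which is 1.94-fold lower for each. Others of the same kind, named in the same way, were nearer to level. The furthest of these was Bcam, with 22.4 in the knockout and 35.7 in the control, 1.60-fold lower. Itgb4, the partner of Itga6 in hemidesmosomes, had 88.5 in the knockout and 81.0 in the control. Itga3 had 71.2 in the knockout and 89.5 in the control. Dag1, which encodes dystroglycan, had 963 in the knockout and 1024 in the control.

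Of 26 other matrix protein genes with a ratio, 3 were higher and 2 lower by 2-fold or more, near the 7.37% and 9.92% of all genes. Their median log2 ratio was 0.04. Thbs1, which encodes the adhesive glycoprotein thrombospondin 1, had 327 in the knockout and 90.7 in the control, 3.60-fold higher. Fmod, a small proteoglycan that binds collagen fibrils, was 2.86-fold higher, and Efemp1, a fibulin gene named after its values were seen, 2.58-fold higher. Fbln1, another fibulin gene, had 44.5 in the knockout and 219 in the control, 4.91-fold lower, and Thbs3 was 3.85-fold lower. The Fmod bound was 0.15 or higher with the mean of all probe sets and 0.27 or higher with shared probe sets left out, neither of which reaches 2-fold. The Thbs3 value became a bound near 0 with the floor at the 60th percentile. The brightest members within the limit were the proteoglycan gene Dcn, with 1753 in the knockout and 1235 in the control, and Tgfbi, with 471 and 346.

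Markers of the cell types that the epithelial fraction could hold were read beside these values. Epithelial markers were bright and near level, with Cdh1 at 2708 in the knockout and 2275 in the control, Epcam at 2335 and 3003, and Krt8 at 4289 and 4220. Among the 10 epithelial markers only Krt7 was past 2-fold, 3.46-fold lower. Over all genes, 9.92% were past 2-fold on the low side and 7.37% on the high side. Of 14 stromal markers that are not matrix genes, 8 had a ratio, 7 of them over 0, beside 53.4% of all genes, and none past 2-fold. Their median log2 ratio was 0.55, against 0.05 over all genes. Vim had 432 in the knockout and 300 in the control. The defining stromal gene Pdgfra ran the other way, with 17.2 in the knockout and 27.8 in the control, and Pdgfrb was under the floor on both arrays. The summed signal of the stromal list was 1051 in the knockout and 778 in the control, a ratio of 1.35. That of the interstitial genes was 1788 in the knockout and 1433 in the control, a ratio of 1.25. Most of the interstitial sum and of its difference came from Col3a1 and Col1a2, whose dimmer probe sets had ratios of -0.14 and -0.08. The stromal sum and its difference came mostly from Vim and Nr2f2, the latter named after its values were seen. The part of stromal cells in the interstitial ratios was not tested.

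Smooth muscle, endothelial and leukocyte markers gave few ratios. Of 8 smooth muscle markers, 3 had a ratio, all under 0, beside 46.6% of all genes. Only Smtn was past 2-fold, on the low side as were 9.92% of all genes. It had 13.6 in the knockout, under the floor, and 42.9 in the control, at least 3.06-fold lower. Acta2 had 71.6 in the knockout and 95.2 in the control, and Myh11 was under the floor on both arrays. The summed signal of that list was 123 in the knockout and 189 in the control. Of 8 endothelial markers, 3 had a ratio and none was past 2-fold, beside 9.92% of all genes on the low side and 7.37% on the high side. Cdh5 had 15.8 in the knockout and 18.1 in the control, and Pecam1 was under the floor on both arrays, beside the bound of Lama4. The endothelial list summed to 73.9 in the knockout and 83.5 in the control. Of 12 leukocyte markers, 8 had a ratio and none was past 2-fold, beside the same shares of all genes. Of these 8 ratios, 5 were over 0 and 3 under it, beside 53.4% and 46.6% of all genes. Ptprc had 38.2 in the knockout and 34.4 in the control, and Csf1r had 144 and 85.8, while Laptm5 had 118 and 227 and Cd68 had 44.4 and 81.1. The leukocyte list summed to 2589 in the knockout and 1836 in the control, most of it from Cd14. Without Cd14, a setting chosen after seeing the data, the list summed to 488 in the knockout and 574 in the control, the other direction. Cd14 is not among the leukocyte markers written in the analysis plan, nor are Wnt7a and Esrp1 among its epithelial markers. Both mesothelial markers on the array, which mark the outer lining of the uterus, were at least 2-fold higher, beside 7.37% of all genes. Upk3b had 372 in the knockout and 145 in the control. Msln had 71.2 in the knockout and 34.7 in the control, a log2 ratio of 1.04. The Msln ratio was 0.95 after loess scaling and 0.81 with the floor added to both signals. With the floor at the 60th percentile Msln had only a bound of 0.15 or higher. The part of these cell types in the matrix ratios was not tested.

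**Figure D5:**
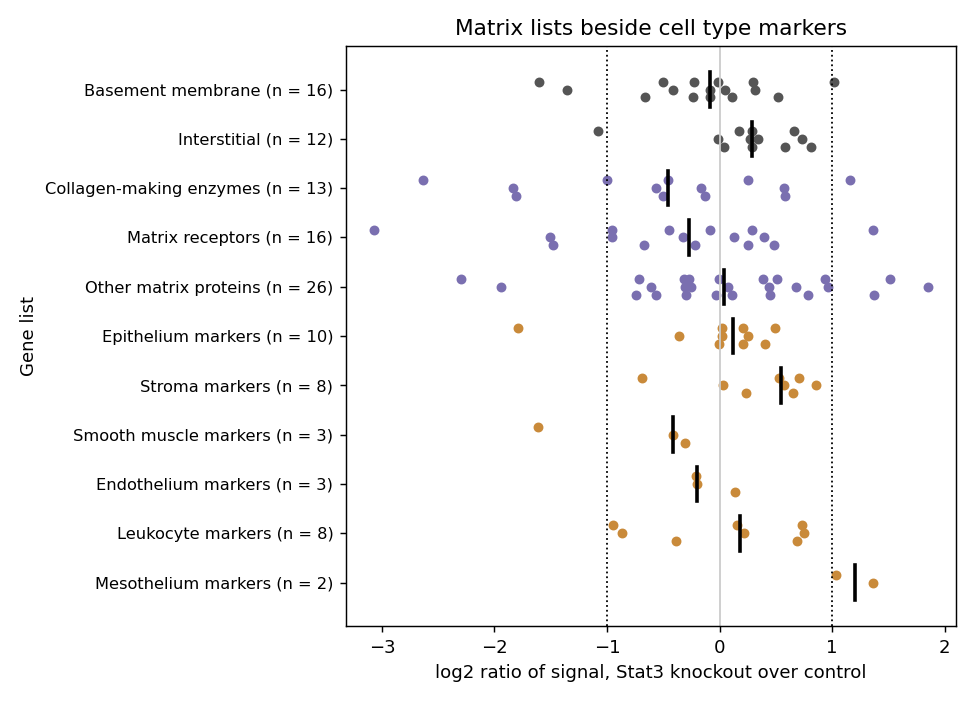
Log2 ratio of knockout over control for each gene with a ratio in the basement membrane and interstitial classes, 3 lists of other matrix genes and 6 lists of cell type markers; black bars are medians, dotted lines mark 2-fold and bounds are entered at their bound. The stromal median of 0.55 lies on the same side of 0 as the interstitial median of 0.29, and both mesothelial markers lie past the upper line.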

How the data were processed

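The deposited table held 1 intensity per probe set and array for 22690 probe sets, on a linear scale. Per the submitters' processing notes, MAS5 and Affymetrix Expression Console 1.1 were used by the authors. As the values show, both arrays had been scaled to a common trimmed mean, leaving out 2% at each end. Per the labels' protocols, labelling of each array started from 100 ng of RNA. Neither detection calls nor probe-level values were used here, and no hybridisation date is given in the sources used.

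Of 22626 probe sets that are not controls, 20380 had 1 gene in the platform annotation, 691 several and 1555 none. The last 2 kinds were not named. Of the 20380, 20351 were found by gene ID in a RefSeq gene table (GRCm38.p6). Each gene was read from its brightest probe set, by the mean of the log2 signals. The floor was the 40th percentile of the signals of both arrays without control probe sets (14.0), and lower signals were raised to it. A gene below the floor in both groups has no ratio, and in 1 group a bound. The log2 ratio of knockout over control had no pseudocount.

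The number of arrays limits the precision: 1 array per group allows no test. Members and lists were chosen with earlier results of these data known. Members over the floor on at least 1 array could be named. From each other matrix list up to 4 genes past 2-fold and the 2 brightest within it were named, and others are marked in the text. Alternatives changed the scaling between arrays (median, quantile, loess with a span of 0.3), the floor, the probe set rule, the fold limit and list membership. In a test on simulated data, the calculation recovered planted folds larger than the limit used here, in bright genes with little noise. That test does not cover 2-fold differences or genes near the floor. Python 3.11.15, pandas 2.3.3, numpy 2.4.6 and statsmodels 0.14.6 were used.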

Additional observations from a re-analysis of the deposited data

How the results depend on the processing

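The median log2 ratio of the basement membrane genes lay between -0.22 and -0.03 over the alternatives, that of the interstitial genes between 0.14 and 0.35, and their difference between -0.48 and -0.22, so all 3 kept their sign. Among the members past 2-fold and the 18 listed genes past 2-fold, no value changed sign under the alternatives that gave one. A changed floor cannot turn the sign of a ratio, so the floor settings are no check of it. The scaling settings moved these ratios by far less than their size, which leaves mainly the probe set rules as a check. A bound short of 2-fold is counted as not past it. Counts moved with the settings below; the cause was not tested beyond the construction of each setting.

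With the floor at the 20th percentile, 3 members were higher, among them 2 basement membrane and 1 interstitial gene, and 2 interstitial genes, 6 matrix receptors and 6 other matrix proteins were lower. Of the markers, 1 stromal gene was then higher, and 1 stromal, 3 smooth muscle, 1 endothelial and 2 leukocyte genes were lower. With no floor, 9 of all 58 members were lower and 8 higher, beside 1774 lower and 1927 higher of all 12393 genes. The member counts were near that background. Among these members were 4 interstitial genes lower and 3 higher, and 2 basement membrane genes higher. Of the other matrix lists, 2 enzymes and 2 receptors were then higher, and 6 receptors and 9 other matrix proteins lower. Of the markers, 3 stromal and 2 smooth muscle genes were higher, and 1 stromal, 4 smooth muscle, 1 endothelial and 3 leukocyte genes lower. With the floor at the 60th percentile, 0 members were higher, 0 basement membrane genes higher, 0 interstitial genes lower and 0 enzymes higher, with 1 receptor, 1 other matrix protein and 0 smooth muscle markers lower and 1 mesothelial marker higher. With the floor added to both signals, 0 members, 0 basement membrane genes and 0 enzymes were higher, 0 interstitial genes lower and 1 mesothelial marker higher. Loess scaling left 0 members and 0 basement membrane genes higher and 1 mesothelial marker higher.

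With the mean of all probe sets, 0 members, 0 basement membrane genes and 0 enzymes were higher, 2 receptors and 1 stromal marker were higher, and 2 enzymes, 1 receptor and 1 leukocyte marker were lower. Leaving out shared probe sets left 1 basement membrane gene lower, and 0 epithelial and 0 smooth muscle markers lower. At 1.5-fold, 4 members and 3 interstitial genes were higher. At 3-fold, 1 member was lower, which is 1 basement membrane gene and 0 interstitial genes. There were then 0 members and 0 basement membrane genes higher. Of the 8304 genes with a ratio, 824 were lower and 612 higher as reported. At 1.5-fold these counts were 1541 and 1607, and at 3-fold 401 and 143. Of all 12393 genes, 1774 were lower and 1927 higher with no floor, and 669 and 429 with the floor added to both signals. The number of genes with a ratio can differ in the other settings, so only counts are given for them. With the floor at the 20th percentile 1113 were lower and 1094 higher, and at the 60th 449 and 346. Loess scaling gave 908 and 525, the mean of all probe sets 712 and 613, and leaving out shared probe sets 650 and 525.

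No paired analysis was possible because each group has 1 array. Leaving out an array was not run for the same reason. Signals near the floor limit the ratios of Col1a1, Col5a1, Col7a1, Col9a2, Col16a1, Loxl1, Lama4 and Nid2. Matching members on current RefSeq symbols gave the same values.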
